A study of Rattus norvegicus with 9 samples.

Results

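Organic ion and drug transporters are membrane proteins that carry drugs, toxins, metabolites, peptides, nucleosides and lipids across cell membranes. The transporters described here were every probe set whose platform annotation gives exactly 1 gene symbol and whose symbol belongs to the solute carrier families SLC22, SLCO, SLC47, SLC15, SLC28 or SLC29 or to the ATP-binding cassette (ABC) subfamilies A to G. A probe set is a group of short array probes against 1 transcript. The rule found 102 probe sets for 77 genes, of 31099 probe sets on the array, and used no measured value. Of these, 51 probe sets of 39 genes were bright enough to be tested, and 38 genes had no tested probe set.

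The 9 arrays measured total RNA from 3 tissues of Sprague-Dawley rat embryos at E13, with 3 pools of each tissue. UB is the ureteric bud, the epithelial outgrowth that becomes the collecting duct system, with about 100 buds in a pool, freed from the embryonic kidney with mild trypsin. WD+IM is the Wolffian duct with the mesodermal cells still attached to it, about 50 in a pool. WD is the Wolffian duct, the tube from which the bud grows, about 100 in a pool and dissected without treatment. No gene was altered and no tissue was cultured. The labels name a digestion for UB only, so tissue and digestion cannot be told apart. The labels call the pools biological replicates and do not say how many litters they came from, so p-values measure the spread between pools.

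In the mature kidney, SLC22 carriers on the blood side of proximal tubule cells take up organic anions and cations, and SLC47 carriers and several ABC pumps pass them into the urine. Solute carriers run on gradients, of the substrate itself or of coupled ions or exchanged solutes, whereas ABC pumps spend ATP. SLC15 proteins recover small peptides, and SLC28 and SLC29 proteins carry nucleosides. ABCA and ABCG proteins mainly move lipids, and ABCB and ABCC proteins include the multidrug pumps. ABCD proteins serve the peroxisome or, for Abcd4, the lysosome. ABCE and ABCF proteins carry nothing across a membrane but act on ribosomes.

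Signals are linear intensity units, comparable between arrays for 1 probe set and not between probe sets. Differences are log2(intensity + 46), the first-named group minus the second, with the standard error (SE) of the fit. All adjusted p-values come from limma's moderated test with Benjamini-Hochberg adjustment over all 20334 probe sets tested, and a probe set with an adjusted p under 0.05 is said to have risen or fallen. Although every array had the same trimmed mean, the median signal lay between 534 and 627 on UB arrays, 644 and 897 on WD+IM arrays and 779 and 862 on WD arrays. The 10th percentile was likewise lowest in UB, at 26.9 to 35.3, against 32.2 to 67.9 in WD+IM and 55.7 to 76.8 in WD. The ratio of 2 hybridisation spikes was 3.02 to 3.07 on UB arrays and 0.892 to 0.941 on WD arrays. In WD+IM it was 3.03 on replicate 3 alone and as low as 0.751 on the others. All 6 bud tip markers, Ret and Wnt11 among them, rose in UB against WD and against WD+IM. In WD+IM against WD, 2 of them rose, Wnt11 and Etv5, and 3 fell. Their summed signal, in which bright probe sets weigh most, was 106190 to 116223 in UB, 8838 to 11225 in WD+IM and 21666 to 23355 in WD. Mesenchyme markers summed to 3981 to 5805 in UB, 145173 to 177412 in WD+IM and 75827 to 101545 in WD. The beta-actin 3'/5' ratio, a measure of RNA integrity, was 1.48 to 2.30 in UB, 1.47 to 1.92 in WD+IM and 2.19 to 4.87 in WD.

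The 5 transporters of largest difference in UB against WD were Abca1, Slc15a1, Slc29a1, Slc28a2 and Abcg5, and the promoters of 3 of them are shown to place these genes. For Slc15a1 and Slc28a2 the table's window lay 41972 and 41363 bases inside the annotated gene, so theirs are not shown. Each window is 300 bases in RefSeq on build GRCr8, 250 before the annotated start and 50 after, and capitals mark a GC box (GGGCGG) or a TATA box (TATAAA), searched on both strands. Abcg5, one of the sterol pump subunits, lies on the plus strand at chr6:15717686-15717985, with its TATA letters 158 bases upstream of the start. Abca1, the cholesterol exporter, lies on the minus strand at chr5:72596424-72596723, with a GC box 165 and a TATA box 32 bases upstream of the start used. That start lies 90 bases inside the annotated gene, so these TATA letters lie within the gene. Slc29a1, a nucleoside carrier, lies on the plus strand at chr9:22896849-22897148, with GC boxes 69 and 59 bases upstream.
Abcg5: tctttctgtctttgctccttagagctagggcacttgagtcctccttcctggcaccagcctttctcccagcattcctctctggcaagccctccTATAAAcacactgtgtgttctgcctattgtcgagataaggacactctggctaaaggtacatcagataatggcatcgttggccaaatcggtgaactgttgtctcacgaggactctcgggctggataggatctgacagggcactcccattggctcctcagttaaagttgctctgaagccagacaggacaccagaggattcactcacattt
Abca1: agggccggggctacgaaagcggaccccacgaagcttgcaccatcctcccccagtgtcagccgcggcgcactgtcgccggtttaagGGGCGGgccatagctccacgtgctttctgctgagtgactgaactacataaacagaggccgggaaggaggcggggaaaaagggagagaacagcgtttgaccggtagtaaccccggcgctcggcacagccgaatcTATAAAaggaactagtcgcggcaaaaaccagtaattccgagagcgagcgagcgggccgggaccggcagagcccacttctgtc
Slc29a1: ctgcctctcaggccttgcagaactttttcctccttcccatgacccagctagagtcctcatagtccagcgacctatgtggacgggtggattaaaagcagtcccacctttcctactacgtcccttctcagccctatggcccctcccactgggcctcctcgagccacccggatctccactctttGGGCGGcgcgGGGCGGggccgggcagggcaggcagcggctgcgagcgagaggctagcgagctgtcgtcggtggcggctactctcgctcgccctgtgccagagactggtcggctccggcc
Windows were found for 64 of the 77 genes, and 21 of these 64 began more than 1000 bases inside the annotated gene. A GC box stood in 34 of these 64 promoters (53.1%), against 33.1% of all 33469 promoters of the same length. A TATA box stood in 10 of 64 (15.6%), against 14.2% of all. The other motif searched, the nuclear receptor repeat called DR4, stood in none of the 64 and in 2 of all 33469 (0.00598%). GC and TATA letters share no overlap here, and a match is a description of the letters only.

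In UB against WD, 24 of the 51 tested transporter probe sets passed the test (47.1%), where 29.9% of all tested probe sets did. Of these, 6 rose and 18 fell. Over all probe sets 11.3% rose and 18.6% fell. All UB arrays lay above all WD arrays in 8 of the 51 (18.3% of all tested) and below them in 25 (29.5% of all). Counted by gene, with the probe set of highest mean log2 signal standing for the gene, 5 of 39 rose and 16 fell. The rises were Slc15a1, Abcg5, Abcf2, Abcf1 and Abce1. The median difference of the 51 probe sets was -0.37, against -0.12 over all tested. Centring each array on its median turned the split of calls to 9 higher and 8 lower. The median of all probe sets was then 0.34, and under quantile normalisation it was 0.04. The split of calls over all probe sets under these scalings is not given here. With the spike ratio as a term in the fit, only 1 of the 21 gene calls, Abca1, was kept. UB and WD arrays differ completely in that ratio, so this fit rests on the WD+IM arrays.

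In WD+IM against WD, 7 of 51 probe sets passed (13.7%), where 12.7% of all did. Abca1 rose, and Abca2, Slco2a1, Slc15a2, Abcg1, Abca3 and Slc22a17 fell. Over all probe sets 5.62% rose and 7.06% fell, and the medians were -0.09 for the transporters and -0.04 for all. WD+IM arrays lay wholly above WD in 5 probe sets (13.5% of all) and wholly below in 10 (16% of all). The split of calls became 2 higher and 6 lower under quantile normalisation, and 2 higher and 5 lower with median centring. In UB against WD+IM, 18 of 51 passed (35.3%), where 25.5% of all did. Of these, 7 rose and 11 fell, beside 11.0% and 14.5% of all, and both medians were -0.05. UB arrays lay wholly above WD+IM in 11 (20.0% of all) and wholly below in 16 (22.6% of all). Median centring turned the split of calls to 11 higher and 8 lower. The splits over all probe sets under these scalings are not given here, so those of the transporters show nothing particular to them. UB against WD and WD+IM against WD share the WD arrays, and UB against WD+IM shares its arrays with both, so the 3 comparisons are not independent. In pooled tissue, a lower share of the cells that express a gene and less of its RNA per cell cannot be told apart.

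**Figure D1:**
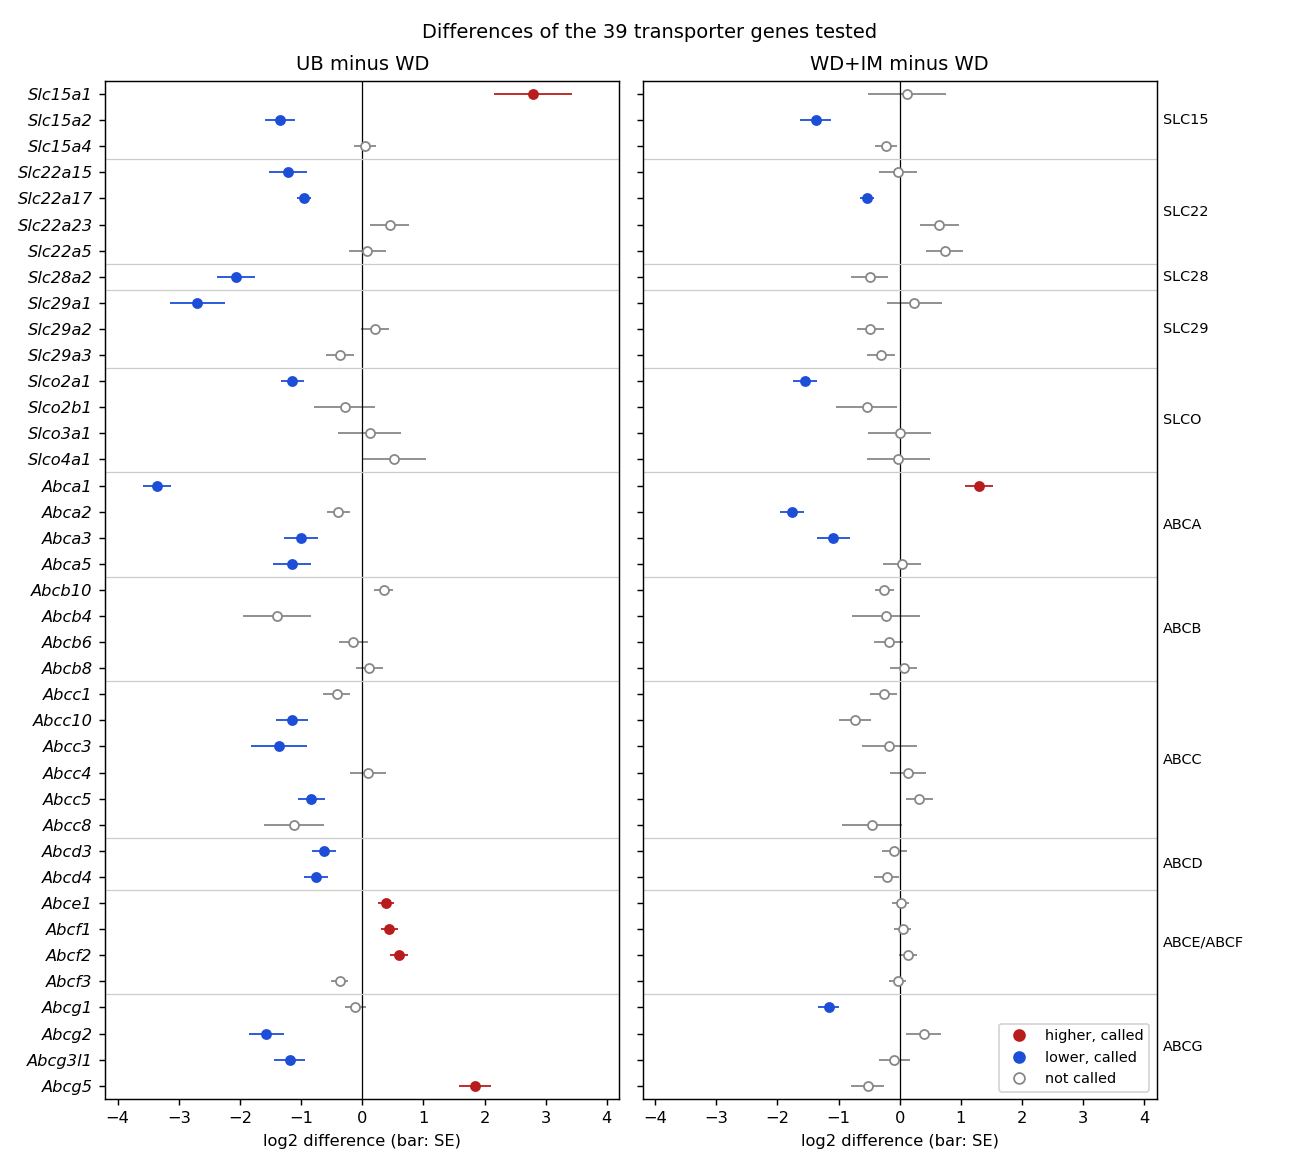
Log2 difference of each of the 39 tested transporter genes in UB minus WD (left) and WD+IM minus WD (right), in family blocks. Filled marks passed the limma test at an adjusted p under 0.05, red higher and blue lower, and bars are standard errors (n = 3 arrays a group). Slc15a1 and Abcg5 stand highest and Abca1 lowest in UB minus WD, at 2.79, 1.84 and -3.36.

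Among the SLC15 peptide transporters, Slc15a1 rose and Slc15a2 fell in UB against WD. Slc15a1, the low-affinity proton-coupled carrier of di- and tripeptides best known from the intestine, had a signal of 1280.4, 798 and 1077 in UB, 51.7, 224 and 139 in WD+IM, and 53.3, 43.1 and 384 in WD. All 3 UB arrays lay above all 6 others, and WD replicate 3 stood above the other WD arrays. The difference was 2.79 ± 0.64 (SE, adjusted p = 0.00699) in UB minus WD and 2.67 ± 0.64 (SE, adjusted p = 0.00817) in UB minus WD+IM, and 0.12 ± 0.64 (SE, adjusted p = 0.923) in WD+IM minus WD. Slc15a1 was the only transporter that passed the filter on weak signals through its UB arrays alone, so a difference had to appear. Its UB minus WD call was lost once the beta-actin ratio entered the fit.

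Slc15a2, the high-affinity peptide carrier that reabsorbs peptides in the kidney, had 735, 848 and 759 in UB, 783, 837 and 676 in WD+IM, and 1779, 2922 and 1658 in WD. The WD arrays were the highest, without overlap, and UB and WD+IM overlapped. It fell by 1.35 ± 0.25 (SE, adjusted p = 0.00207) in UB against WD and fell by 1.38 ± 0.25 (SE, adjusted p = 0.0032) in WD+IM against WD, where the call was lost with the beta-actin covariate (adjusted p = 0.0782). Slc15a4, a lysosomal histidine and peptide carrier, passed in none of the comparisons, with 0.04 ± 0.18 (SE, adjusted p = 0.88) in UB minus WD. Slc15a3, also lysosomal, was below the filter.

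The SLC22 family holds the organic anion and cation carriers, and 12 of its 16 genes had no tested probe set. Of the 4 tested, 2 fell in UB against WD and none rose, where 18.6% of all tested probe sets fell and 11.3% rose. The family median was -0.43, but 0.03 after median centring. Slc22a17, the lipocalin receptor known for binding iron-carrying lipocalin, had 8001, 7723 and 7867 in UB, 11125, 10794 and 9699 in WD+IM, and 15564, 14746 and 15569 in WD. The groups were fully ordered, UB lowest, WD+IM between and WD highest. It fell by 0.96 ± 0.11 (SE, adjusted p = 0.000101) in UB against WD, fell by 0.54 ± 0.11 (SE, adjusted p = 0.00916) in WD+IM against WD and fell by 0.42 ± 0.11 (SE, adjusted p = 0.0181) in UB against WD+IM. Each of these calls was lost after median centring, and that against WD+IM in 8 of 22 alternatives.

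Slc22a15, a carrier of zwitterions and cations, had 362, 649.7 and 647 in UB, 1497, 1145 and 1207 in WD+IM, and 1937, 1201 and 943 in WD. The UB arrays were lowest, without overlap, and the others overlapped. It fell by 1.21 ± 0.31 (SE, adjusted p = 0.0123) against WD and fell by 1.18 ± 0.31 (SE, adjusted p = 0.0137) against WD+IM, and both calls were lost under quantile normalisation and without UB replicate 1. Slc22a5, the sodium-dependent carnitine carrier, had 1107, 1127 and 977 in UB, 1616, 1283 and 2367 in WD+IM, and 1227, 630.2 and 1300.01 in WD. UB and WD overlapped, and none of its differences passed, the largest being 0.73 ± 0.30 (SE, adjusted p = 0.131) in WD+IM minus WD. Slc22a23, an orphan carrier, had 616, 807 and 604 in UB, 671, 931 and 736 in WD+IM, and 596, 300.3 and 601 in WD. UB and WD+IM lay above WD, but the differences did not pass (adjusted p = 0.303 in UB minus WD and 0.214 in WD+IM minus WD).

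The classical renal drug carriers of the family were weak in every tissue. Slc22a6, the basolateral organic anion exchanger of the proximal tubule, had 27.1, 11.7 and 35.9 in UB, 39.2, 56.7 and 36.2 in WD+IM, and 166, 70.2 and 95.0 in WD. These values ran in the order UB, WD+IM, WD with no overlap, near the bottom of the signal range. Slc22a8, its partner in organic anion uptake, had 10.1, 20.7 and 36.4 in UB, 315, 76.7 and 102 in WD+IM, and 196, 132 and 775 in WD. UB lay below both other tissues, and WD replicate 3 stood well above the rest, but on a second probe set of Slc22a8 the groups overlapped. Slc22a12, the urate exchanger, had 4.79, 38.0 and 42.0 in UB, 22.8, 94.1 and 87.9 in WD+IM, and 80.4, 65.0 and 208 in WD. Slc22a7, an organic anion carrier, had 126, 124 and 264 in UB, 141, 116 and 80.2 in WD+IM, and 245, 73.4 and 569 in WD. The UB arrays of Slc22a12 lay below those of WD, whereas those of Slc22a7 overlapped.

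The cation carriers were likewise weak. Slc22a2, the renal cation carrier, had 121, 100.2 and 118 in UB, 378, 257 and 68.1 in WD+IM, and 132, 32.5 and 50.5 in WD. Slc22a3, the extraneuronal monoamine carrier, had 4.26, 91.9 and 11.98 in UB, 66.4, 77.8 and 93.9 in WD+IM, and 194, 31.8 and 24.2 in WD. Slc22a4, the ergothioneine carrier, had 71.9, 9.69 and 16.4 in UB, 197, 36.1 and 32.5 in WD+IM, and 60.3, 157 and 15.1 in WD. The groups overlapped for all 3. Slc47a1, the proton-coupled extrusion carrier of the tubule's apical side, had 99.9, 74.3 and 43.3 in UB, 58.2, 234 and 29.0 in WD+IM, and 41.9, 21.8 and 39.7 in WD, and its 3 UB arrays lay above the WD arrays. Slc22a18, an imprinted orphan carrier, had 172, 157 and 254 in UB, 248, 343 and 305 in WD+IM, and 349, 464 and 1064 in WD, lower in UB than in WD without overlap. None of these 9 genes was tested, and no probe set with 1 symbol represented Slc47a2.

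**Figure D2:**
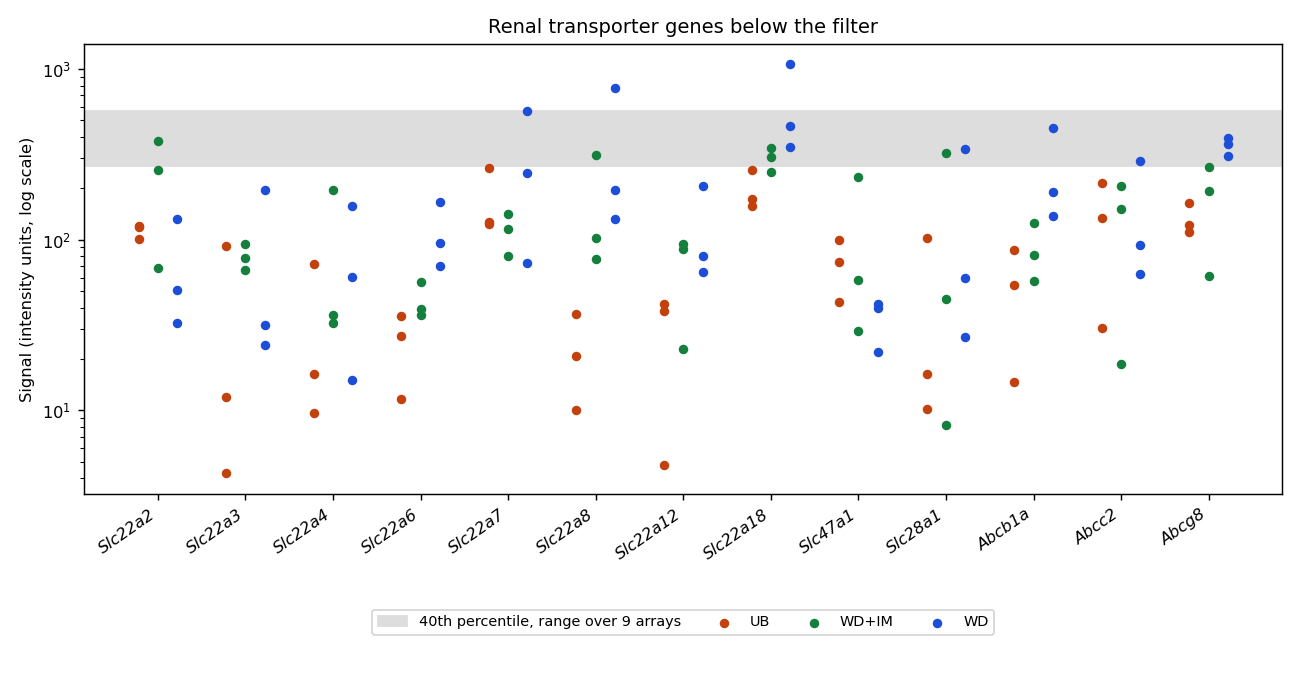
Signal on each of the 9 arrays (log axis, intensity units) of the renal drug and organic ion transporters below the filter, with UB, WD+IM and WD points side by side and the shaded band for the range of the arrays' 40th percentiles. Most points lie below the band, and for Slc22a6 and Slc22a8 every UB point is below every WD+IM and WD point on the probe set plotted, that of highest mean signal.

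Weak signals as a whole were lower on the UB arrays. Among the 51 transporter probe sets below the filter, 16 had all UB arrays below all WD arrays and 1 had them above. Of all 10708 probe sets below the filter, 27.6% lay below in the same way and 1.38% above. WD+IM lay wholly below WD in 7 of the 51 (8.88% of all) and above in 1 (3.09% of all). UB lay wholly below WD+IM in 11 (15.7% of all) and above in none, where 2.32% of all did. The median signal of the 51 was 53.6 in UB, 115 in WD+IM and 123 in WD, in a range of 2.29 to 1060.0 units. Of the 38 genes without a tested probe set, 27 exceeded an array's 40th percentile on no array, by the probe set that stands for the gene. The 38 genes include the pump Abcb1a, with 54.0, 14.7 and 86.9 in UB, 56.9, 125 and 81.4 in WD+IM, and 190.004, 138 and 451 in WD, and the apical anion pump Abcc2, with 30.5, 216 and 134 in UB, 18.8, 206 and 150.3 in WD+IM, and 93.0, 290.4 and 62.9 in WD. UB lay below WD for this probe set of Abcb1a, but the groups overlapped on its second one, and they overlapped for Abcc2. Slc28a1, a pyrimidine nucleoside carrier, overlapped too, with 10.2, 102 and 16.3 in UB, 319.96, 44.8 and 8.19 in WD+IM, and 26.9, 341 and 59.9 in WD.

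The nucleoside carriers Slc28a2 and Slc29a1 were lowest in the bud. Slc28a2, the sodium-coupled purine nucleoside carrier, had 310.4, 353 and 312 in UB, 1543, 726 and 1042 in WD+IM, and 1737, 1746 and 1119 in WD. All 3 UB arrays lay below all others, and WD+IM overlapped WD. It fell by 2.06 ± 0.30 (SE, adjusted p = 0.000451) in UB against WD and fell by 1.57 ± 0.30 (SE, adjusted p = 0.00222) in UB against WD+IM. Slc29a1, the equilibrative nucleoside carrier of most cell types, including red cells, had 239, 32.7 and 245 in UB, 1563, 1351 and 1276 in WD+IM, and 1185, 1474 and 919.5 in WD. Again the UB arrays were lowest, none of them above its 40th percentile, and UB replicate 2 was far below the others. Slc29a1 thus passed the filter on weak signals through its WD+IM and WD arrays alone, which favoured a fall in UB. It fell by 2.70 ± 0.45 (SE, adjusted p = 0.00104) against WD and fell by 2.94 ± 0.45 (SE, adjusted p = 0.000375) against WD+IM, where the call was lost within the arrays of high spike ratio.

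Slc29a2, a second equilibrative carrier, had 3312, 2316 and 2316 in UB, 1622, 1949 and 1283 in WD+IM, and 2217, 2748 and 1860.05 in WD. The UB arrays lay above the WD+IM arrays and overlapped WD. It rose by 0.69 ± 0.22 (SE, adjusted p = 0.0397) in UB against WD+IM, and its second probe set did not pass (adjusted p = 0.0561). The call was lost in 11 of 22 alternatives, among them without any 1 of the UB arrays and with no filter. The lysosomal Slc29a3 passed in no comparison. Markers of other cells moved with the falls of Slc28a2 and Slc29a1. The summed signal of 7 matched red cell markers such as Alas2 and Slc4a1 was 9130 to 31906 in UB, 161086 to 234176 in WD+IM and 182267 to 259882 in WD. All 6 tested fell in UB against WD, and none was at 0. Their part in these falls was not tested.

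Of the 13 SLCO genes, which encode organic anion transporting polypeptides, 4 were tested. In UB against WD 1 of them fell, where 18.6% of all tested probe sets did. Slco2a1, the prostaglandin carrier, had 1590.2, 1540.4 and 1295 in UB, 973, 1329.8 and 1021 in WD+IM, and 3448, 2950.3 and 3521 in WD. WD was highest, without overlap, and UB overlapped WD+IM. It fell by 1.14 ± 0.19 (SE, adjusted p = 0.00111) in UB against WD and fell by 1.55 ± 0.19 (SE, adjusted p = 0.0003) in WD+IM against WD. A second probe set of Slco2a1 passed in neither (-0.25 and -0.14). Slco3a1, a prostaglandin and thyroid hormone carrier, had 349, 297 and 709 in UB, 489, 333 and 345 in WD+IM, and 158, 394 and 843 in WD on its brightest probe set, and the groups overlapped. Its other tested probe set rose by 1.52 in UB against WD (adjusted p = 0.0409). That probe set passed the filter on weak signals through its UB and WD+IM arrays alone, which favoured a rise over WD. Slco4a1, also a thyroid hormone carrier, had 456, 402 and 377 in UB, 266, 458 and 147 in WD+IM, and 219, 575 and 148 in WD, and the groups overlapped. The median of the 4 tested genes was -0.08 in UB minus WD, but 0.51 under quantile normalisation and 0.38 after median centring.

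**Figure D3:**
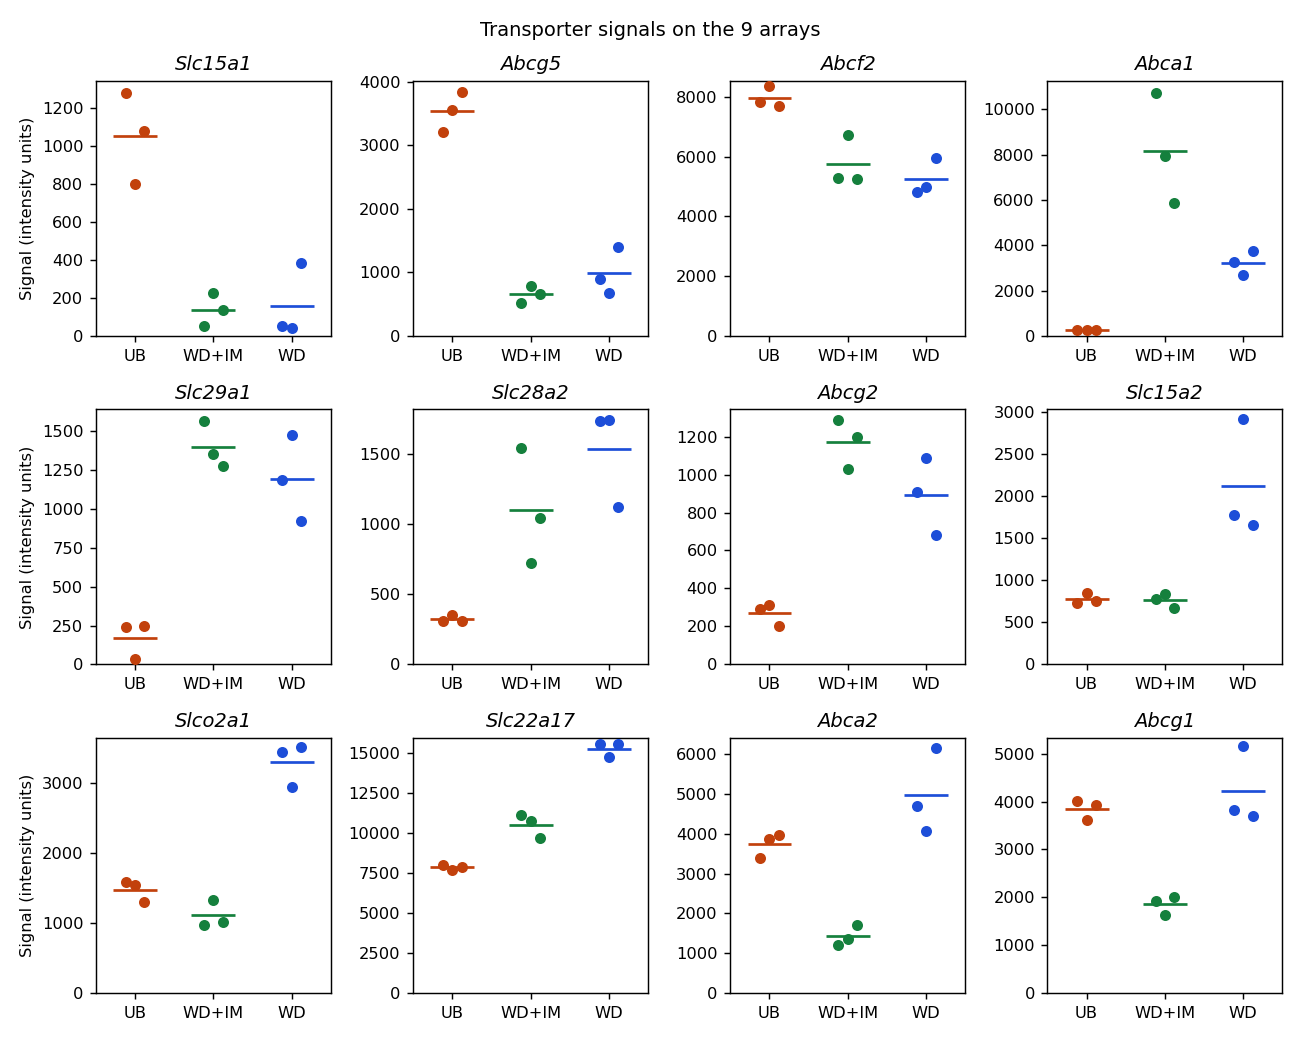
Signal on each of the 9 arrays (linear axis from 0, intensity units) for called transporters, a panel each with its own scale, where points are arrays and lines are means (n = 3). Slc15a1, Abcg5 and Abcf2 are highest in UB, Abca1, Slc28a2, Slc29a1 and Abcg2 are lowest in UB, and Abca2 and Abcg1 are lowest in WD+IM.

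The largest difference of any tested transporter was that of Abca1. Abca1, which exports cholesterol and phospholipid to apolipoproteins, had 262, 283 and 264 in UB, 10719, 7927 and 5849 in WD+IM, and 3246, 2696 and 3736 in WD. The groups did not overlap, with UB lowest and WD+IM highest, and no UB array exceeded its 40th percentile. Abca1 thus passed the filter on weak signals through its WD+IM and WD arrays alone, which favoured a fall in UB. It fell by 3.36 ± 0.23 (SE, adjusted p = 9.39e-07) in UB against WD and fell by 4.66 ± 0.23 (SE, adjusted p = 2.92e-08) in UB against WD+IM. It rose by 1.30 ± 0.23 (SE, adjusted p = 0.00261) in WD+IM against WD. The other 2 tested probe sets differed by -1.75 and -3.32 in UB minus WD and fell there, but did not pass in WD+IM against WD (1.03 and 1.14, adjusted p = 0.0632 and 0.1). The rise in WD+IM was lost with the beta-actin covariate (adjusted p = 0.111).

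Marker lists of other cell types moved too. Of the 6 mesenchyme markers, all fell in UB against WD and 3 rose in WD+IM against WD. The 7 macrophage markers summed to 1464 to 2326 in UB, 5288 to 7607 in WD+IM and 3606 to 5553 in WD, where WD+IM and WD overlap. Of the 6 tested, 4 fell in UB against WD, and none rose or fell in WD+IM against WD. Cd68 passed in neither and averaged highest in UB. Pericyte and smooth muscle markers, 7 in all, summed to 2788 to 3165 in UB, 21365 to 25720 in WD+IM and 7137 to 9618 in WD. Of these, 3 rose and none fell in WD+IM against WD. The 8 matched endothelial markers summed to 2931 to 3815 in UB, 40415 to 41221 in WD+IM and 3664 to 5385 in WD, with UB and WD overlapping, and all 8 rose in WD+IM against WD. No list had a gene at 0, and their part in the Abca1 differences was not tested.

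Abca2 and Abcg1, both lipid transporters, were lowest where mesoderm was attached. Abca2, an endolysosomal lipid carrier, had 3401, 3864 and 3965 in UB, 1212, 1352 and 1714 in WD+IM, and 4693, 4079 and 6166 in WD. WD+IM lay below both other tissues, and UB below WD. It fell by 1.76 ± 0.19 (SE, adjusted p = 0.000159) in WD+IM against WD and rose by 1.38 ± 0.19 (SE, adjusted p = 0.000194) in UB against WD+IM. Abcg1, which passes cholesterol to lipoprotein particles, had 4011, 3622 and 3928 in UB, 1917, 1629 and 1999 in WD+IM, and 3814, 5153 and 3689 in WD. WD+IM was lowest, without overlap, while UB overlapped WD. It fell by 1.16 ± 0.17 (SE, adjusted p = 0.000914) in WD+IM against WD and rose by 1.05 ± 0.17 (SE, adjusted p = 0.000664) in UB against WD+IM. The other 2 probe sets of Abcg1 passed in neither. The summed signal of 8 duct epithelium markers was also lowest there, at 151733 to 163579 in UB, 58651 to 96567 in WD+IM and 203411 to 213382 in WD. Of these markers, 7 fell in WD+IM against WD, Cdh1 and Pax2 among them, and 4 fell in UB against WD. Krt19 went another way: it was lowest in UB and did not pass in WD+IM minus WD (0.01, adjusted p = 0.968). The part of these markers in the Abca2 and Abcg1 differences was not tested.

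Abca3, a phospholipid carrier of lamellar bodies, had 977, 1324 and 1052 in UB, 769.7, 1575 and 926 in WD+IM, and 1766, 2575 and 2548 in WD. WD was highest, without overlap. Its difference was -1.0004 ± 0.27 (SE, adjusted p = 0.0175) in UB minus WD and -1.09 ± 0.27 (SE, adjusted p = 0.0218) in WD+IM minus WD, and its other tested probe set passed in neither. Abca5, a lysosomal lipid transporter, had 265, 289 and 411 in UB, 752, 675 and 927 in WD+IM, and 709.6, 999 and 615 in WD. UB was lowest, without overlap. It fell by 1.15 ± 0.31 (SE, adjusted p = 0.0152) against WD and fell by 1.19 ± 0.31 (SE, adjusted p = 0.0132) against WD+IM, and both calls were lost under quantile normalisation. The calls of Abca3 and Abca5 against WD were also lost without UB replicate 1. Over all alternatives, Abca3 lost its UB against WD call in 8 of 21 and its WD+IM against WD call in 7 of 22.

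The sterol half-transporter Abcg5, which works as a pair with Abcg8 to export plant sterols and cholesterol, was highest in the bud. It had 3203, 3548 and 3842 in UB, 513, 793 and 657 in WD+IM, and 901, 674 and 1391 in WD. All UB arrays stood above all others, and WD+IM overlapped WD. It rose by 1.84 ± 0.27 (SE, adjusted p = 0.000395) in UB against WD and by 2.37 ± 0.27 (SE, adjusted p = 3.25e-05) in UB against WD+IM. Its partner Abcg8 lies head to head with it on chromosome 6 in GRCr8, with 205 bases between the annotated starts, so the promoter shown above is largely shared. Abcg8 was below the filter, with 163, 110.5 and 122 in UB, 193, 267 and 61.4 in WD+IM, and 308, 364 and 395 in WD. Its UB arrays lay below its WD arrays, as did those of 27.6% of all probe sets below the filter. This order of weak signals therefore cannot be set against that of Abcg5.

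Abcg2, an efflux pump for many drugs and for urate, had 289.8, 313 and 202 in UB, 1288, 1027 and 1199 in WD+IM, and 906, 1088 and 682 in WD. UB was lowest, without overlap, and WD+IM overlapped WD. It fell by 1.57 ± 0.29 (SE, adjusted p = 0.00188) against WD and fell by 1.97 ± 0.29 (SE, adjusted p = 0.000256) against WD+IM. Abcg3l1, a rodent relative of Abcg2, had 654, 624 and 510.3 in UB, 1531, 1037 and 1438 in WD+IM, and 1604, 1633 and 1056 in WD. UB was again lowest, without overlap. It fell by 1.18 ± 0.25 (SE, adjusted p = 0.005) against WD and fell by 1.09 ± 0.25 (SE, adjusted p = 0.00699) against WD+IM, and both calls were lost under quantile normalisation and median centring. Abcg3l1 and its relatives could share probe signal, which was not checked. Among tested markers, 6 of 6 red cell, 4 of 6 macrophage and 6 of 6 mesenchyme genes also fell in UB against WD. So did 5 of 6 pericyte and smooth muscle, 3 of 3 intermediate mesoderm and coelomic epithelium, and 4 of 8 endothelial genes. In the duct epithelium list 4 of 8 fell, while 1 endothelial gene and all 6 bud tip genes rose. Over all tested probe sets 18.6% fell and 11.3% rose, and the part of these markers was not tested.

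Among the ABCC multidrug pumps, 3 of 6 tested genes fell in UB against WD, where 18.6% of all tested probe sets fell. None passed in WD+IM against WD, where 12.7% of all did. Abcc5, a cyclic nucleotide pump, had 1179, 1509.5 and 1335 in UB, 3966, 3237 and 2143 in WD+IM, and 2285, 2313 and 2657 in WD. UB lay below both other tissues, which overlapped. It fell by 0.83 ± 0.22 (SE, adjusted p = 0.0155) against WD and fell by 1.15 ± 0.22 (SE, adjusted p = 0.00219) against WD+IM, and its second probe set did not pass (adjusted p = 0.104 and 0.0795). Abcc10, a broad lipophilic anion pump, had 419, 606 and 704 in UB, 668, 909 and 753 in WD+IM, and 1139, 1365 and 1453 in WD. WD was highest, without overlap, and it fell by 1.15 ± 0.26 (SE, adjusted p = 0.00688) in UB against WD. Abcc3, a basolateral pump of organic anions and glucuronides, had 166, 264 and 454 in UB, 927, 1055 and 321 in WD+IM, and 736, 682 and 936 in WD. UB lay below WD, and WD+IM replicate 3 lay among the UB values. It fell by 1.36 ± 0.45 (SE, adjusted p = 0.0391) against WD, and the difference changed sign with the spike ratio term (0.13, adjusted p = 0.942). All 3 of these calls were lost under quantile normalisation and median centring, and that of Abcc3 was lost in 9 of the 20 alternatives in which it was tested, apart from the reversal.

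Abcc1, a glutathione conjugate pump, had 2103, 2251 and 2151 in UB, 3558, 2042 and 1918 in WD+IM, and 2822, 2684 and 3233 in WD. UB lay below WD, but the difference of -0.41 ± 0.22 (SE, adjusted p = 0.175) did not pass. Abcc4, a pump of cyclic nucleotides and urate, had 550.3, 675 and 735 in UB, 813, 682 and 547 in WD+IM, and 489, 808 and 562 in WD, and all groups overlapped. In the ABCB subfamily, none of 4 tested genes passed in UB against WD, where 29.9% of all tested probe sets did. Nor did any pass in WD+IM against WD, where 12.7% of all did. Abcb10, a mitochondrial pump of the haem pathway, had 3459, 3424 and 3067 in UB, 2035, 2149 and 2312 in WD+IM, and 2528, 2358 and 2897 in WD. UB was highest, without overlap, and it rose by 0.60 ± 0.16 (SE, adjusted p = 0.0133) in UB against WD+IM. A second probe set of Abcb10 did not pass there (-0.0065, adjusted p = 0.987), and in UB minus WD its difference had the opposite sign (-0.47 against 0.35).

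The 2 tested ABCD genes both fell in UB against WD, where 18.6% of all tested probe sets fell. Abcd2 was below the filter. Abcd3, which brings fatty acids into the peroxisome, fell by 0.62 ± 0.20 (SE, adjusted p = 0.0345) in UB against WD. Abcd4, which serves vitamin B12 release from the lysosome, fell by 0.76 ± 0.20 (SE, adjusted p = 0.0155). Both calls were lost under quantile normalisation, with median centring and without UB replicate 1, and that of Abcd3 in 9 of 21 alternatives. Of the 4 ribosome-acting ABCE and ABCF genes, 3 rose in UB against WD, where 11.3% of all tested probe sets rose. Abcf2 had 7830.02, 8354 and 7693 in UB, 5271, 6733 and 5263 in WD+IM, and 4805, 4983 and 5959.8 in WD. UB was highest, without overlap, and it rose by 0.60 ± 0.15 (SE, adjusted p = 0.0102) against WD and by 0.47 ± 0.15 (SE, adjusted p = 0.034) against WD+IM. The call against WD+IM was lost in 9 of 22 alternatives, quantile normalisation and leaving out any 1 UB array among them.

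Abcf1, a translation initiation factor, had 10794, 10735 and 10632 in UB, 9341, 8289 and 7057 in WD+IM, and 7332, 7483 and 8949 in WD. Abce1, which recycles ribosomes, had 13814, 14420.3 and 14346 in UB, 11091, 11427 and 10367 in WD+IM, and 10849.6, 9305 and 12672 in WD. For both, UB was highest, without overlap. In UB against WD, Abcf1 rose by 0.44 ± 0.14 (SE, adjusted p = 0.0335) and Abce1 rose by 0.39 ± 0.13 (SE, adjusted p = 0.0457), and both are close to the threshold. The Abce1 call was lost in 13 of 21 alternatives and the Abcf1 call in 10 of 21, quantile normalisation, the replicate block and leaving out any 1 UB array among them. Abcf3, a relative with antiviral roles in the mouse, ran the other way without passing, at -0.37 ± 0.14 (SE, adjusted p = 0.067). The remaining tested genes, 14 in all with Abcf3 among them, passed in no comparison by the probe set that stands for the gene, and those differences ran from -1.40 to 0.73. One of them is Slco3a1, whose other probe set rose as given above.

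Of the 39 tested genes, 10 had more than 1 tested probe set. Over the 3 comparisons, their calls differed between probe sets in 12 cases and were opposite in none.

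**Figure D4:**
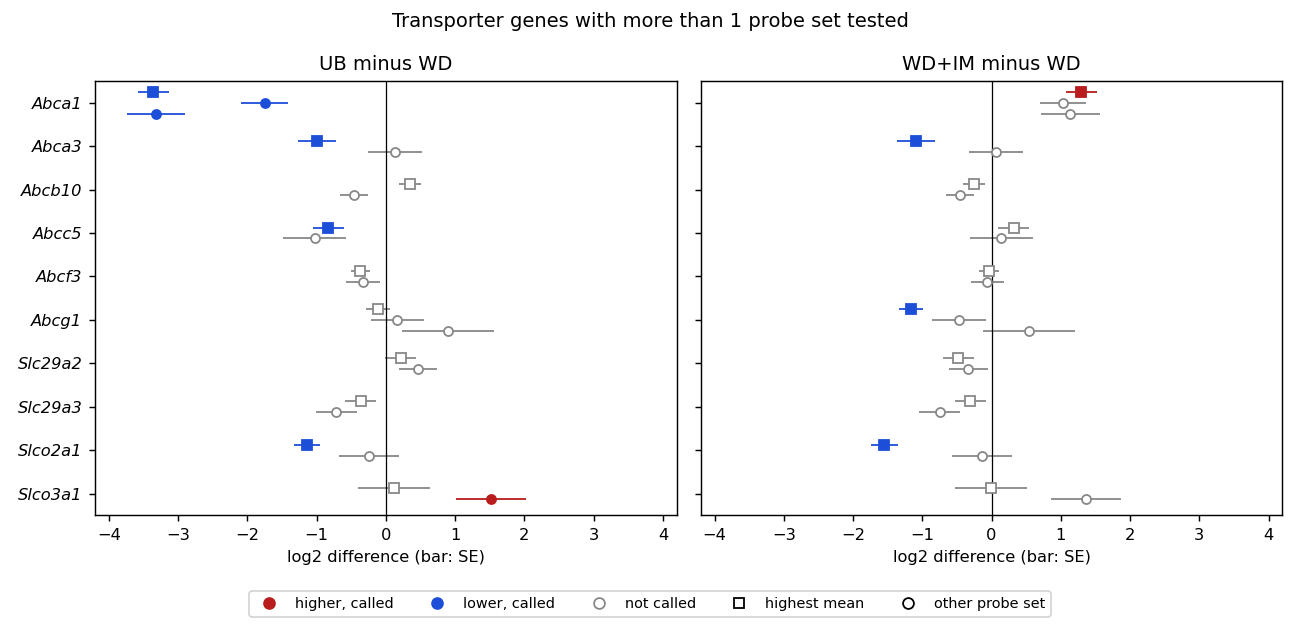
Log2 differences of every tested probe set of the 10 genes with more than 1, in UB minus WD (left) and WD+IM minus WD (right). Squares mark the probe set of highest mean signal, filled marks passed the limma test, bars are standard errors, and no gene has probe sets called in opposite directions.

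Genes that act with these transporters were taken as a list of 29 partners and regulators, of which 24 were on the array with 1 symbol and 10 were tested. In UB against WD, 2 rose and none fell, where 11.3% of all tested probe sets rose and 18.6% fell. Nfe2l2, the oxidative stress factor that induces several ABCC pumps, had 8522, 8495 and 8387 in UB, 4147, 3732 and 4204 in WD+IM, and 6042, 4841 and 4632 in WD. UB was highest, without overlap, and the rise was 0.72 ± 0.14 (SE, adjusted p = 0.00308) against WD and 1.07 ± 0.14 (SE, adjusted p = 0.000123) against WD+IM. Srebf1, a factor of lipid synthesis, had 6287, 6698 and 6798 in UB, 4194, 4992 and 3911 in WD+IM, and 4341, 3709 and 4652 in WD. UB was again highest, without overlap, with 0.64 ± 0.15 (SE, adjusted p = 0.00776) against WD and 0.60 ± 0.15 (SE, adjusted p = 0.0107) against WD+IM.

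In WD+IM against WD, 2 of the 10 rose and none fell, where 5.62% of all tested probe sets rose and 7.06% fell. Mylip, which degrades the LDL receptor, had 3034, 2515 and 2999 in UB, 5371, 4844 and 5848 in WD+IM, and 2117, 2378 and 1395 in WD. WD+IM was highest, without overlap, with 1.46 ± 0.20 (SE, adjusted p = 0.000594) in WD+IM minus WD and -0.90 ± 0.20 (SE, adjusted p = 0.00554) in UB minus WD+IM. Apoe, a carrier apolipoprotein, had 828, 1132 and 829 in UB, 3154, 1705 and 1230.2 in WD+IM, and 578, 848 and 1069 in WD, also highest in WD+IM without overlap. It differed by 1.17 ± 0.34 (SE, adjusted p = 0.0391) in WD+IM minus WD and by -0.996 ± 0.34 (SE, adjusted p = 0.047) in UB minus WD+IM. Srebf1 did not pass here, at 0.04 ± 0.15 (SE, adjusted p = 0.884) in WD+IM minus WD. Nr1h2, a sterol-sensing nuclear receptor of the LXR pair, passed in no comparison, at 0.31 ± 0.20 (SE, adjusted p = 0.336) in WD+IM minus WD. Nr1h3, the other LXR, and Hnf4a, a factor for renal SLC22 genes, were among the 14 below the filter. Of 7 proximal tubule markers, Cubn, Slc34a1, Slc5a2 and Pdzk1 were below the filter and 3 were tested. Of these, Lrp2 was bright, with 675, 1032 and 991 in UB, 2035, 1896 and 1489 in WD+IM, and 5980, 8938 and 6405 in WD. Lrp2 fell in UB against WD (adjusted p = 2.57e-06), WD+IM against WD (adjusted p = 0.000208) and UB against WD+IM (adjusted p = 0.00623). Aqp1 and Gatm passed in no comparison.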

How the data were processed

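Per the labels' protocols, biotin-labelled cRNA from total RNA was hybridised to Affymetrix arrays. GCOS, the Affymetrix software, made the signals, per the submitters' processing notes, and its version and summary algorithm are not stated there. The deposited table holds linear intensity values for 31099 probe sets on 9 arrays, and the values show that the authors' arrays have equal means after trimming 2% of values at both ends. No detection calls were used, so weak signal and background cannot be told apart, and the scaling makes every difference relative. The test scale was log2(intensity + 46), with the 10th percentile of the whole table as pseudocount, which understates differences of weak genes. Probe sets entered the test when 3 or more arrays exceeded their own 40th percentile. limma 3.58.1 in R 4.3.3 was fitted to all 9 arrays with group as the only term and a mean-variance trend, with 6 residual and 6.09 prior degrees of freedom. The fit was tested on simulated data. No samples were dropped or imputed, and 3 arrays a group limit the precision.

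Symbols came from the platform table, 20832 probe sets having 1 symbol, 436 several and 9774 none besides 57 controls, and the 77 member symbols matched GRCr8 by Entrez ID. Array values of all 9 arrays are given for called genes whose groups do not overlap, up to 10 in each direction of a comparison, and for a set of renal transporters whatever their result. The members, lists and tests were chosen with earlier results of these data known. Replicate numbers shared by the tissues are not said to mark litters or days. Deviations from the group means correlated at -0.348 to 0.277 for equal numbers and -0.261 to 0.300 for unequal ones, so the numbers were not taken to pair the samples. Alternatives were other scalings, pseudocounts, filters and variance settings, a replicate block, the spike ratio, the beta-actin ratio and leaving out each array.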

Additional observations from a re-analysis of the deposited data

How the results depend on the processing

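In UB against WD the count of 24 transporter probe sets became 13 under quantile normalisation, 15 with the beta-actin covariate and 1 with the spike ratio term. In WD+IM against WD the count of 7 became 3 with the beta-actin covariate, and in UB against WD+IM the count of 18 became 9 with the spike ratio term. Leaving out each array in turn gave 14 to 25 probe sets in UB against WD, 6 to 8 in WD+IM against WD and 12 to 20 in UB against WD+IM. The 14 and the 12 were without UB replicate 1. The replicate block gave 21 in UB against WD, 7 in WD+IM against WD and 17 in UB against WD+IM, where samples share a number only. The share of all probe sets called under each alternative is not given here, so these counts show nothing particular to transporters. The cause of these changes was not tested. Abcc3 reversed in UB minus WD with the spike ratio term, at 0.13. Under every alternative in which they were tested, Abca1 kept its calls in UB against WD and against WD+IM, Abca2 and Abcg1 theirs in WD+IM against WD and UB against WD+IM, Abcg2, Abcg5 and Slc28a2 theirs in UB against WD+IM, and Slco2a1 its call in WD+IM against WD. In UB against WD, Abcg2, Abcg5, Slc15a2, Slc28a2, Slc29a1 and Slco2a1 lost their calls with the spike ratio term alone. Signals near the bottom of the range limit what can be said of the 38 genes below the filter.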
